A study of Homo sapiens with 51 samples.

Results

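The HOX clusters and the CDX genes were followed through open chromatin, read out by ATAC-seq, an assay that cuts and tags open DNA with a transposase. A region belonged to a gene when the nearest annotated end of any protein-coding gene lay within 50 kb of the region's centre and was an end of that gene. Of 404988 regions of 201 bp in 3 count tables, 821 were linked in this way to the 41 listed genes, out of 20056 RefSeq protein-coding genes. They were 251 of 100584 regions at day 0, 344 of 142087 under BMP4 and 226 of 162317 under SMADi. No listed gene lacked a region under BMP4, HOXC8 had none at day 0, and HOXA6 had none under SMADi. All 821 regions passed the filter on low counts. Under BMP4, 71 of the 344 belonged to HOXA (10 genes, chromosome 7), 90 to HOXB (10 genes, chromosome 17), 80 to HOXC (9 genes, chromosome 12), 68 to HOXD (9 genes, chromosome 2) and 35 to CDX1, CDX2 and CDX4 (chromosomes 5, 13 and X).

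All libraries came from H1 human embryonic stem cells, an established line, in 3 genotypes. They are labelled KO, ΔATG (DATG in the sample names) and WT. The labels do not name an edited gene, so the edit could not be checked at a gene, and they do not say how many clones each line comprised. KO, ΔATG and WT cells were taken undifferentiated at day 0 with no treatment, on days 1, 2, 3, 4 and 5 of BMP4, a growth factor given to make mesoderm, and on days 1, 4 and 5 in a neural induction medium with an agent labelled SMADi, given to make neuroectoderm after seeding with the ROCK inhibitor Y-27632. The 51 libraries (17 KO, 16 ΔATG, 18 WT) came as replicates a and b, except for 1 library each of KO day 4, ΔATG day 1 and ΔATG day 5 under SMADi. Whether replicates were grown as separate cultures is not given in the labels, so the p-values reflect the scatter of these libraries alone and may be technical.

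HOX genes encode homeodomain transcription factors that give cells their position along the head-to-tail axis. They lie in clusters in the order in which they act: genes of low paralogue number at one end are expressed early and mark the hindbrain, and those of high number at the other end mark the tail and the limb tips. In pluripotent cells the clusters are covered by Polycomb repression and open progressively, and the CDX factors act upstream of trunk and posterior HOX genes. In neural tissue that has received no posterior signal, the forebrain keeps HOX genes silent.

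RefSeq promoter windows of 300 bp (250 before and 50 after the annotated start, GRCh38.p14) were at hand for 22 of the 41 genes, with 28 distinct windows, 7 of them of HOXA3 and 1 shared by HOXC4 and HOXC5. Those of HOXB1, HOXA10, HOXA13 and HOXD1 are shown because each contains or overlaps a region whose accessibility differed between lines, and that of CDX2 because CDX2 had the most changing regions of the CDX genes and its motif matches can be set beside those of the HOX windows. They lie at chr17:48530962-48531261 (minus strand), chr7:27179812-27180111 (minus), chr7:27200042-27200341 (minus), chr2:176188418-176188717 (plus) and chr13:27969266-27969565 (minus). Capitals mark matches, on either strand, to TTTATNG (a CDX motif), TGATTNA (a motif bound by PBX with HOX) or AGGGGGC (part of the CTCF motif).
HOXB1: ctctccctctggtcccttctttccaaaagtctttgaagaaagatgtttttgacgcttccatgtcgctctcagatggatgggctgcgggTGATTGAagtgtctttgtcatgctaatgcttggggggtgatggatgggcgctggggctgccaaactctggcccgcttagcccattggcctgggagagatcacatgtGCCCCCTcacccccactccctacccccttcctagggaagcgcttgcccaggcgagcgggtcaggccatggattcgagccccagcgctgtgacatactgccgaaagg
HOXA10: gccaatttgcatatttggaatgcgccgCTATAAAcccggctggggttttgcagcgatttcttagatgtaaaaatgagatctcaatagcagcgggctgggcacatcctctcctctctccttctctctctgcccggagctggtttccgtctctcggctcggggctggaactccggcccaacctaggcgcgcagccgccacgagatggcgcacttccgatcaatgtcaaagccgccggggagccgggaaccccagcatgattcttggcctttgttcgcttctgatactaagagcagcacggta
HOXA13: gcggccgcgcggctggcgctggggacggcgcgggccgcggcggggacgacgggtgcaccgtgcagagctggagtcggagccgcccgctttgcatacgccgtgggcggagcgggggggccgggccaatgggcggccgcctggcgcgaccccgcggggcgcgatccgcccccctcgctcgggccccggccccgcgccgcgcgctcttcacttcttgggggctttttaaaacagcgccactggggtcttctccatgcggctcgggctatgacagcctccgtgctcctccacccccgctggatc
HOXD1: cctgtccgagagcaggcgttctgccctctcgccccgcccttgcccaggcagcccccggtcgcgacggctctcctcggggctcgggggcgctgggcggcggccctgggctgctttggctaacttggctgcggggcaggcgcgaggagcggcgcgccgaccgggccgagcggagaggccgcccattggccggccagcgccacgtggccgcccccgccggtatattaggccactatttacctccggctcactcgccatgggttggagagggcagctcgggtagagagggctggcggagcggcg
CDX2: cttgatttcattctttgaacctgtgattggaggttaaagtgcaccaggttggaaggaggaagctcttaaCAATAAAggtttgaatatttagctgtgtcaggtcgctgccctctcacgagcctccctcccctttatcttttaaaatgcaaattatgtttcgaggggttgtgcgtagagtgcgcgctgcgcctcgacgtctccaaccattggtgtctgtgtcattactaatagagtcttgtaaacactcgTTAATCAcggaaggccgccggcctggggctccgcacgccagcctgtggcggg
The HOXB1 window held 1 PBX-HOX and 1 CTCF-core match, the HOXA10 window 1 CDX match and the CDX2 window 1 CDX and 1 PBX-HOX match. The HOXA13 and HOXD1 windows held none of these letters and were rich in CG pairs instead, with 44 and 36. A CDX match was in 7 of the 28 listed windows (25%), 2 of them of HOXA3, against 9.75% of all 34943 distinct promoter windows. A PBX-HOX match was in 6 of 28 (21.4%) against 9.75% of all, and a CTCF-core match in 4 of 28 (14.3%) against 14.3%. A direct repeat of AGGTCA with a 5-base spacer, bound by retinoic acid receptors, was in 0 of the 28 and in 2 of 34943. Such matches describe the windows and are not measured binding.

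Total counts per library ran from 4616521 to 7516259 at day 0, from 4019778 to 13850448 under BMP4 and from 7086918 to 23252871 under SMADi. The listed regions took 0.163% to 0.185%, 0.155% to 0.218% and 0.0837% to 0.109% of them, or 6373 to 25077 counts per library over all tables. Each table has its own regions, so tests were run within a table, and levels are CPM, counts scaled to the size of the library within it. The labelled fates were checked on markers of mesoderm and neuroectoderm. From day 1 to day 5 in WT, 6 of 7 mesoderm markers became more accessible under BMP4 and 3 of 6 neuroectoderm markers under SMADi. The shares of all gene sums called higher are given below with the WT changes. The other neuroectoderm markers were not called higher, so the check under SMADi is partial. No gene of the marker lists was at 0, but open chromatin at a gene is not its expression. One library did not sit with its label. Over 41 genes that differed between KO and ΔATG in the same direction at day 0 and under BMP4, the mean log2 level of each SMADi library was taken in the direction of KO, relative to the mean of all SMADi libraries. It was −0.30 in the library labelled KO SMADi day 1 replicate b, 0.65 to 0.67 in the other 4 KO libraries, −0.40 to −0.35 in the 4 ΔATG libraries and −0.30 to −0.05 in the 6 WT libraries. The library was kept as labelled, and counts without it are given beside the averaged SMADi comparisons with WT and the KO interactions. Other SMADi results of KO are given with it only, among them the day 1 calls, the changes within KO and KO against ΔATG. In bulk samples, fewer cells with an open region and less opening per cell cannot be told apart.

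At day 0 no difference between the lines was detected at the listed genes. Of 251 regions, 0 were called in KO against WT and 0 in ΔATG against WT at an adjusted p under 0.05 (edgeR quasi-likelihood test, Benjamini-Hochberg over all regions), where 0.0855% and 0.205% of all regions were called. At an unadjusted p under 0.05 there were 11 and 19. Of 40 gene sums, the counts of all regions of a gene added up, 0 were called in either line (4 and 3 at an unadjusted p under 0.05), where 0.139% and 0.186% of all gene sums were called. DESeq2 gave 0 in each of the 4 comparisons too. With 2 libraries per line, small differences were not detectable at this depth.

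Under BMP4, HOX accessibility in WT cells went up across HOXA, HOXB and HOXC by day 2 and had settled by day 5 into a HOXB gain and a HOXD loss. Of the 41 gene sums in WT, 22 were higher and 0 lower on day 2 against day 1 (12.3% and 10.5% of all gene sums), with 6 higher in HOXA, 7 in HOXB, 7 in HOXC, 1 in HOXD and 1 in CDX. With scaling on regions within 1 kb of gene ends these were 16 and 1, and with sums over such regions alone 8 and 2. On day 3, 20 were higher and 5 lower (22.3% and 21.7%), the 5 lower ones all HOXD genes. By day 4 the count was 5 higher and 8 lower (19.9% and 19.3%), and by day 5 it was 9 higher and 7 lower (24.3% and 23.2%). The day 5 shares stand near the background, and their split turned to 8 higher and 9 lower with total-count scaling and to 7 higher and 10 lower with scaling on regions near gene ends. The split by cluster did not turn for HOXB (6 higher, 1 lower) or HOXD (0 higher, 6 lower) under any scaling tried.

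**Figure D1:**
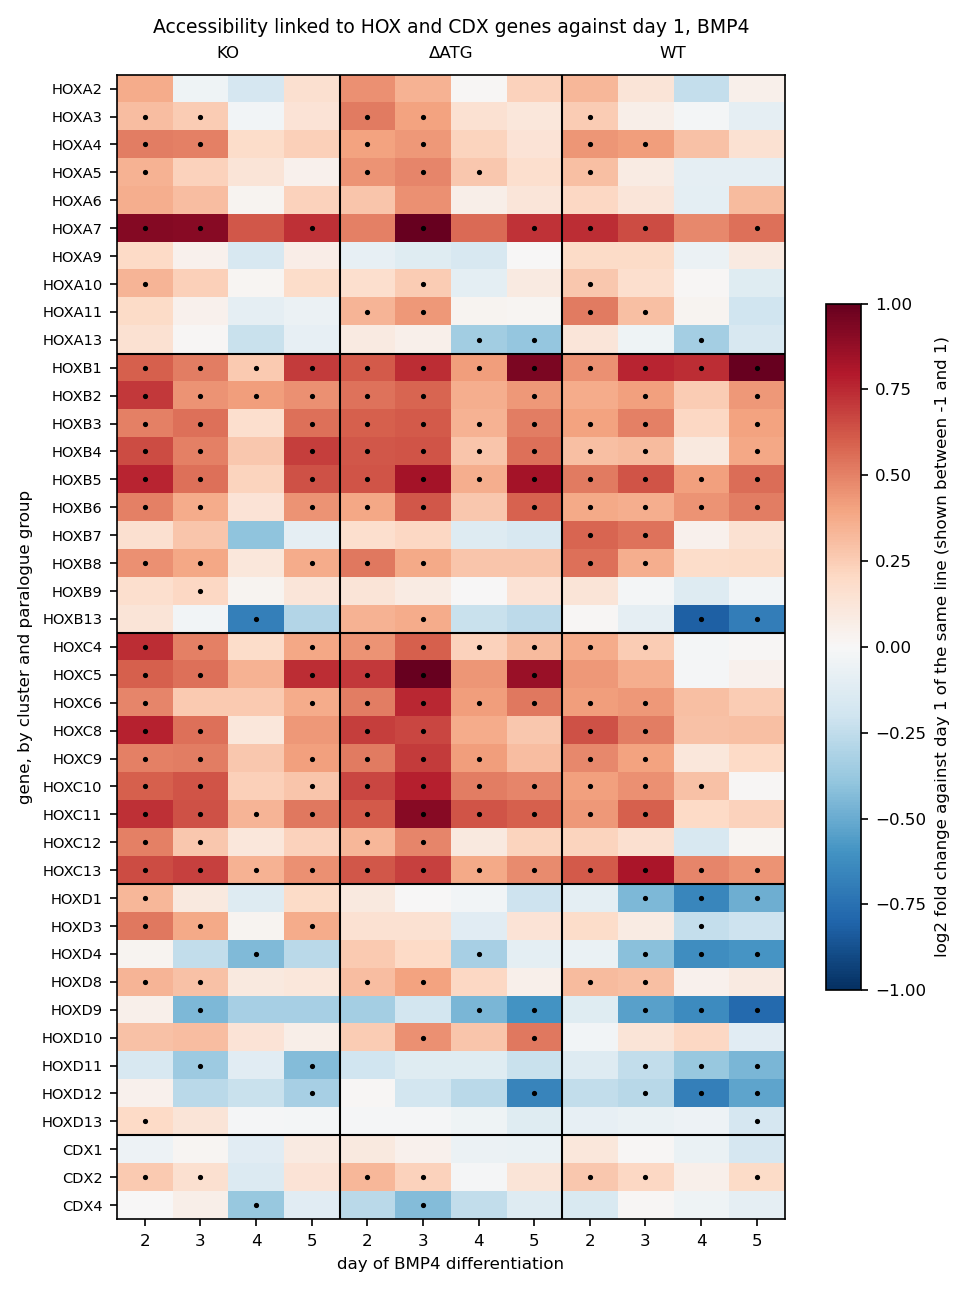
Log2 fold change of each listed gene's summed accessibility on BMP4 days 2 to 5 against day 1, in KO, ΔATG and WT cells from left to right, with genes in cluster order down the page and dots at called values (colours are capped at 1 in either direction). HOXB1 gained most in WT, where 6 of 9 HOXD genes were called lower on day 5. The change to day 5 differed from that of WT at HOXD1 and HOXD3 in KO and at 0 HOXD genes in ΔATG.

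HOXB1, the paralogue that marks rhombomere 4 of the hindbrain, had the largest gain among the listed genes. Its summed accessibility in WT was 66.9 and 66.6 CPM on day 1, 88.1 and 95.7 on day 2, 113 and 113 on day 3, 124 and 99.1 on day 4 and 141 and 148 on day 5. Every WT library of days 2 to 5 lay above both day 1 libraries, and the log2 fold change of day 5 against day 1 was 1.12 ± 0.08 (SE, adjusted p = 1.07e-16, edgeR). The next genes along HOXB followed with smaller gains: HOXB2 at 0.43 ± 0.14, HOXB3 at 0.40 ± 0.09, HOXB4 at 0.39 ± 0.10, HOXB5 at 0.56 ± 0.12 and HOXB6 at 0.51 ± 0.11. At the far end of the same cluster HOXB9 changed by −0.03 and did not pass. HOXB13, a gene of the tail bud, fell by 0.69 ± 0.13 on the log2 scale, with 15.3 and 15.7 CPM on day 5 against 24.4 and 25.9 on day 1. Summed over paralogue groups 1 to 3, HOXB accessibility in WT was 76.3% higher on day 5 than on day 1, whereas over groups 9 to 13 it was 8.67% lower.

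In HOXD the direction was the opposite. HOXD9 fell by 0.78 ± 0.15, HOXD4 by 0.59 ± 0.11, HOXD12 by 0.53 ± 0.12, HOXD1 by 0.49 ± 0.11, HOXD11 by 0.46 ± 0.11 and HOXD13, a gene of the digits and the urogenital tract, by 0.17 ± 0.07. Both ends of the cluster fell: summed over paralogue groups 1 to 3 it had a mean of 78.2 CPM on day 5 against 96.5 on day 1 in WT, and over groups 9 to 13 a mean of 141.0 CPM against 178.4. HOXD9 had 12.0 and 12.1 CPM on day 5 against 20.8 and 20.5 CPM on day 1, with no overlap. Elsewhere HOXC13, a gene of hair and nails, rose by 0.45 ± 0.09 and HOXA7, a trunk gene with few counts, by 0.55 ± 0.22. HOXA13 (−0.16) and HOXC10 (0.01) did not pass.

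Among the CDX genes, which encode regulators of the posterior axis and, for CDX2, also of the trophoblast and the gut, only CDX2 passed in WT. It had 167 and 171 CPM on day 5 against 148 and 149 CPM on day 1, a log2 fold change of 0.19 ± 0.06. When only regions within 1 kb of the gene ends were summed, its value was −0.11. A region 2138 bp upstream of the gene, chr13:27971353-27971553, had 19.9 and 19.1 CPM on day 5 against 8.99 and 9.69 CPM on day 1 (1.06 ± 0.16, adjusted p = 1.44e-08). CDX1 changed by −0.17 and CDX4 by −0.09, and neither passed.

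At the level of single regions, 52 of 344 were higher and 21 lower on WT day 5 against day 1 (20.3% and 14.7% of all regions). HOXB had 27 higher and 2 lower, and HOXD had 2 higher and 11 lower. HOXC had 7 higher and 0 lower, HOXA 7 and 4, and the CDX genes 9 and 4. Total-count scaling turned the sum to 34 higher and 38 lower. Scaling on regions near gene ends, which moved the median of all regions by −0.14, gave 34 and 39. Both scalings also turned HOXA and CDX to more lower than higher. HOXB stayed at 20 higher with either scaling. Without WT day 5 replicate b, 44 regions were called in place of 73, and without WT day 1 replicate b, 47.

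The gain at HOXB1 was concentrated in a series of regions on the far side of the gene, away from the rest of the cluster. Of its 20 regions, the 7 with a WT gain of at least 2 on the log2 scale comprised 1 inside the gene and 6 beyond its downstream end, up to 39655 bp away. Summed, they had 5.78 and 8.61 CPM in KO on day 1, 9.70 and 12.3 on day 2, 16.3 and 13.9 on day 3, 18.5 and 17.0 on day 4 and 18.9 and 27.8 on day 5. ΔATG cells had 5.68 and 6.03 CPM on day 1, 18.4 and 14.0 on day 2, 19.1 and 22.0 on day 3, 25.3 and 23.0 on day 4 and 43.6 and 38.5 on day 5. WT cells had 6.87 and 6.25 CPM on day 1, 12.4 and 15.4 on day 2, 32.9 and 29.7 on day 3, 47.3 and 33.3 on day 4 and 60.7 and 63.8 on day 5. From day 3 on, the libraries fell into the order KO, ΔATG, WT with no overlap between lines on any day. The 7 regions were chosen on the WT libraries that also enter the comparison between lines, so these sums are a description with no test.

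The HOXB1 promoter went the other way. The region at chr17:48530986-48531186, 75 bp from the gene's upstream end and wholly inside the HOXB1 window printed above, was higher in both mutant lines. On day 1 it had 7.69 and 5.58 CPM in KO, 6.69 and 7.46 in ΔATG and 6.08 and 4.84 in WT. On day 3 it had 13.6 and 16.5 CPM in KO, 14.7 and 14.0 in ΔATG and 9.56 and 9.96 in WT. On day 5 it had 11.1 and 11.9 CPM in KO, 9.05 and 8.20 in ΔATG and 4.90 and 5.70 in WT. The mutant libraries lay above both WT libraries on days 3 and 5. Over all 5 days the log2 fold change was 0.57 ± 0.09 in KO against WT (adjusted p = 3.16e-07) and 0.46 ± 0.09 in ΔATG against WT (adjusted p = 1.54e-04), and both passed in all 36 alternatives tried. In WT it changed by −0.04 ± 0.22 between day 1 and day 5. A second region, 1343 bp beyond the downstream end (chr17:48527083-48527283), had 13.6 and 17.1 CPM in KO, 12.3 and 15.9 in ΔATG and 7.82 and 7.07 in WT on day 5. From day 1 to day 5 it rose more in KO than in WT, by 1.28 ± 0.30 (adjusted p = 9.93e-03). Farther out, chr17:48501140-48501340, 27286 bp away, had 7.14 and 8.41 CPM in KO, 14.3 and 12.9 in ΔATG and 20.7 and 18.7 in WT on day 5. It was lower in KO over the 5 days by 0.62 ± 0.09 on the log2 scale (adjusted p = 9.99e-08).

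**Figure D2:**
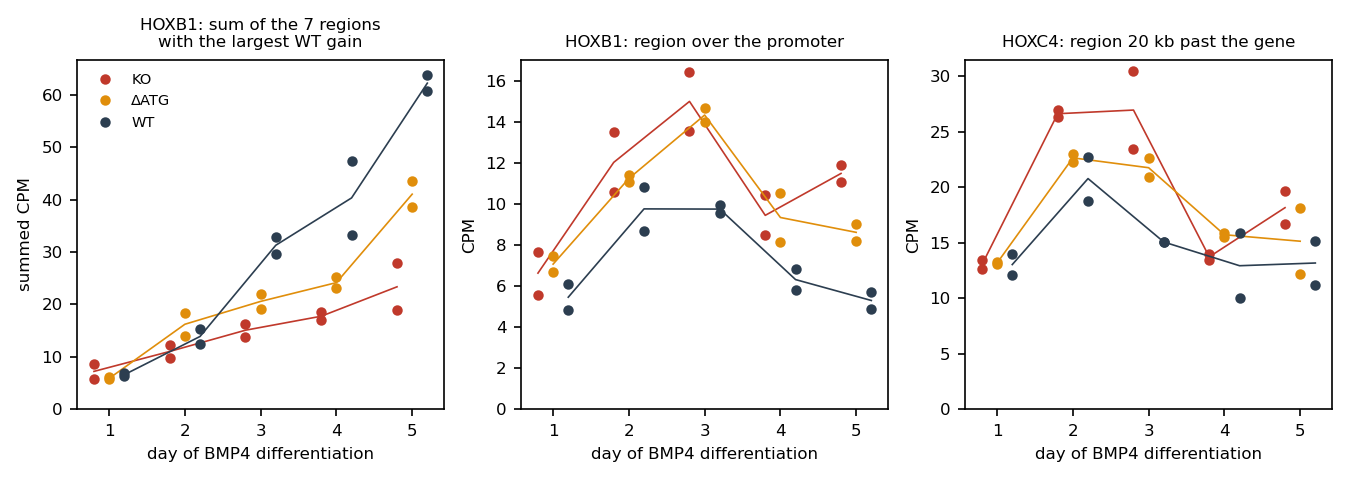
Normalised accessibility (CPM) on BMP4 days 1 to 5 in KO, ΔATG and WT cells, each point a library and each line the mean, for the sum of the 7 HOXB1 regions with the largest WT gain, the HOXB1 promoter region and the HOXC4 region 20184 bp from the gene. The distal sum on day 5 was 18.9 and 27.8 in KO, 43.6 and 38.5 in ΔATG and 60.7 and 63.8 in WT, while the promoter region was lowest in WT.

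Averaged over the BMP4 days, more listed genes were higher than lower in the mutant lines against WT, mainly in HOXC and HOXD. Summed over all listed genes, KO and WT libraries overlapped on days 1 to 4, with 1627 and 1671 CPM in KO and 1651 and 1631 in WT on day 4. They did not overlap on day 5, with 1869 and 1874 CPM in KO and 1685 and 1743 in WT. Of 41 gene sums, 13 were higher and 1 lower in KO against WT (11.4% and 11.4% of all gene sums), and 9 were higher and 0 lower in ΔATG against WT (5.37% and 5.05%). The median log2 fold change over the 41 was 0.08 in KO and 0.06 in ΔATG, against 0.00 over all gene sums in both. The higher genes lay mainly in HOXC and HOXD: KO had 5 of 9 in HOXC, 6 of 9 in HOXD, 2 of 10 in HOXA and 0 of 10 in HOXB, and ΔATG had 3, 4, 1 and 1. The CDX genes had 0 of 3 in either line. All 9 HOXC genes had a positive value in KO. The 1 lower gene was HOXB1 in KO. The count in KO was 14 in all, and was 8 without WT day 1 replicate b and 9 without KO day 1 replicate b or KO day 3 replicate a. The 9 calls in ΔATG became 3 without ΔATG day 2 replicate b and 5 without ΔATG day 3 replicate a.

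**Figure D3:**
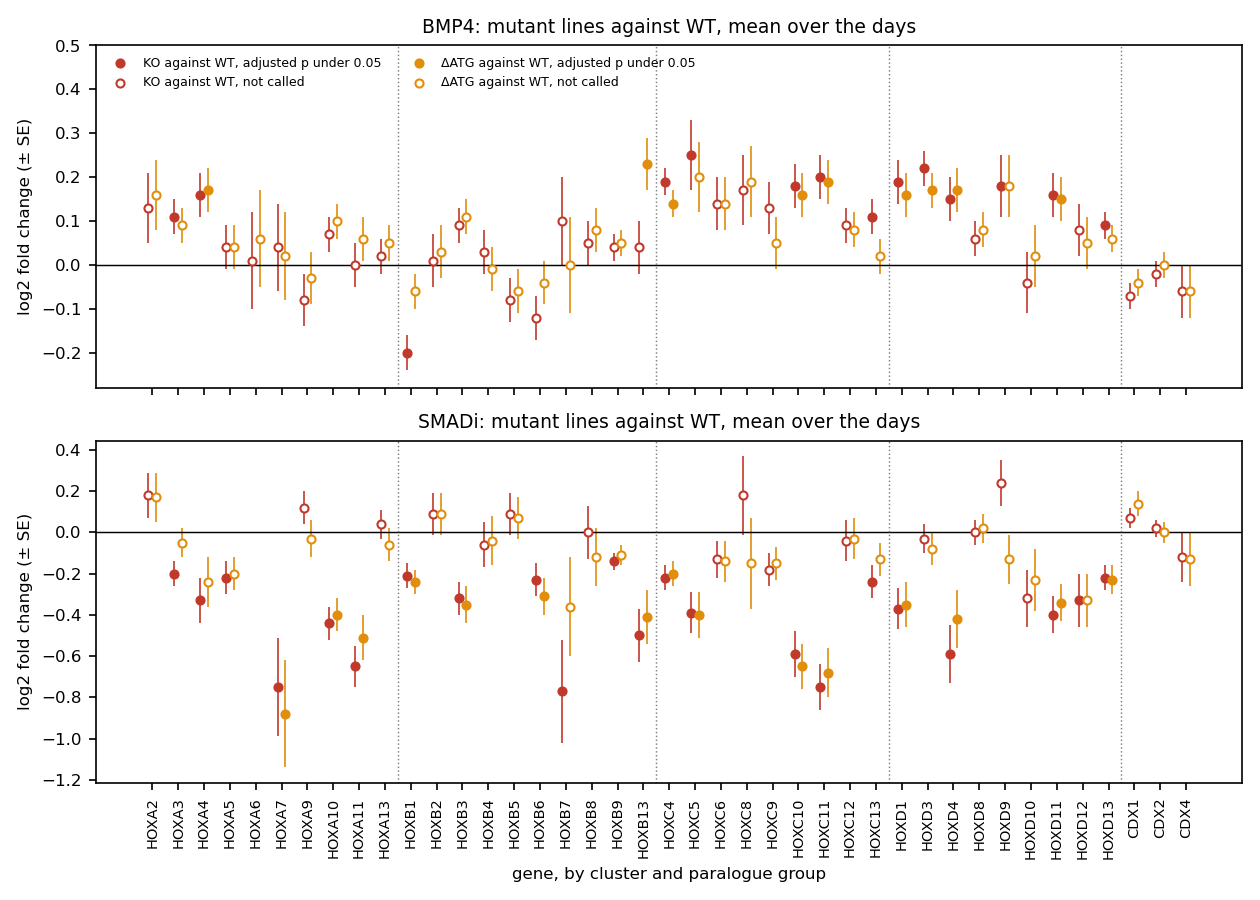
Log2 fold change of each listed gene's summed accessibility in KO against WT and in ΔATG against WT, averaged over days, under BMP4 (top) and SMADi (bottom), with genes in cluster order, bars giving the standard error and filled points called values. Under BMP4 the called points lie above 0 except HOXB1 in KO, and under SMADi all 22 called points of KO and all 15 of ΔATG lie below 0.

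Called genes of HOXC ran from HOXC4 and HOXC5, genes of the neck and upper trunk, to the lumbar genes HOXC10 and HOXC11. HOXC4 had 92.4 and 86.9 CPM in KO, 83.3 and 94.5 in ΔATG and 98.1 and 87.1 in WT on day 1, with the lines overlapping. On day 5 it had 117 and 118 CPM in KO, 110 and 112 in ΔATG and 92.6 and 94.3 in WT, both mutant lines above WT. Its log2 fold change over the days was 0.19 ± 0.03 in KO (adjusted p = 2.24e-05) and 0.14 ± 0.03 in ΔATG (adjusted p = 0.00424). HOXC5 rose by 0.25 ± 0.08, HOXC11 by 0.20 ± 0.05, HOXC10 by 0.18 ± 0.05 and HOXC13 by 0.11 ± 0.04 in KO. HOXC11 (0.19 ± 0.05) and HOXC10 (0.16 ± 0.05) also rose in ΔATG. On day 5 HOXC5 had 25 and 23.4 CPM in KO, 21.4 and 24.9 in ΔATG and 14.4 and 16.0 in WT, again without overlap. HOXC4, HOXC5 and HOXC6 share an annotated start, and by rule a region nearest to it is counted for HOXC4 alone.

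In HOXD, KO and ΔATG stood above WT by day 5. HOXD3, a gene of the hindbrain and neck, had 56.8 and 54.2 CPM in KO, 57.8 and 64.6 in ΔATG and 60.1 and 56.9 in WT on day 1. On day 5 it had 78.5 and 65.3 CPM in KO, 68.5 and 66.6 in ΔATG and 53.9 and 48.2 in WT. All 4 mutant libraries of day 5 lay above both WT libraries. HOXD3 rose by 0.22 ± 0.04 in KO (adjusted p = 6.64e-05) and by 0.17 ± 0.04 in ΔATG (adjusted p = 0.00523). HOXD1, the most anterior gene of its cluster, had 37.5 and 35.7 CPM in KO, 30.4 and 28.2 in ΔATG and 27.3 and 27.1 in WT on day 5. On day 1 KO lay below WT, with 32.3 and 31.9 CPM in KO, 30.4 and 37.6 in ΔATG and 39.8 and 36.2 in WT. HOXD1, HOXD4 and HOXD11 passed in both lines (0.15 to 0.19), and HOXD9 and HOXD13 passed in KO (0.18 ± 0.07 and 0.09 ± 0.03). In ΔATG HOXD9 had the value 0.18 ± 0.07 and HOXD13 0.06 ± 0.03, which did not pass. The HOXD13 value in KO turned to −0.22 when only regions within 1 kb were summed. Of 36 alternatives, the HOXD13 call in KO was lost in 12 others and the HOXD9 call in KO in 17. In ΔATG the calls at HOXD1, HOXD11 and HOXD4 were lost in 15, 13 and 11 of 36. In KO the HOXD1 call was kept in all 36, and that at HOXD11 was lost in 3.

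In HOXA, the hindbrain and neck genes HOXA3 (0.11 ± 0.04) and HOXA4 (0.16 ± 0.05) passed in KO, and HOXA4 passed in ΔATG as well (0.17 ± 0.05). HOXB13 was higher in ΔATG (0.23 ± 0.06) and not called in KO. The anchor genes HOXB9, HOXA13, CDX1, CDX2 and CDX4 were called in neither line. For CDX2 the day 5 levels were 174 and 163 CPM in KO, 153 and 179 in ΔATG and 167 and 171 in WT, which overlap.

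HOXB1 was lower in KO, by 0.20 ± 0.04 on the log2 scale (adjusted p = 2.78e-05), and had a value of −0.06 in ΔATG, which did not pass. On day 5 its sum over all regions was 101 and 116 CPM in KO, 125 and 136 in ΔATG and 141 and 148 in WT. Set directly against ΔATG, KO was lower at HOXB1 by 0.14 ± 0.04 (adjusted p = 0.0191), the 1 gene of the 41 called between the mutant lines (0.882% higher and 1.14% lower among all gene sums). Summed within 1 kb of the gene ends alone, HOXB1 had a value of 0.09 in KO, in the direction of its promoter region.

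On day 1 no listed gene was called against WT. On that day 0 of 41 gene sums were called in KO and 0 in ΔATG (1 and 0 at an unadjusted p under 0.05), where 0.141% and 0.113% of all gene sums were called. The median log2 fold change over the 41 was −0.03 in KO and −0.02 in ΔATG on day 1, and 0.17 in KO and 0.11 in ΔATG on day 5. On day 5, 8 were higher and 1 lower in KO (9.21% and 8.99%) and 4 higher and 0 lower in ΔATG (2.22% and 3.44%). The change from day 1 to day 5 was compared between lines directly. In KO it exceeded that of WT at HOXD1 (0.67 ± 0.16, adjusted p = 0.00672), HOXD3 (0.58 ± 0.13, adjusted p = 0.00538) and HOXC4 (0.38 ± 0.11, adjusted p = 0.0261), and it was smaller at HOXB1 (−0.41 ± 0.11, adjusted p = 0.0221). These are 4 of 41, where 2.78% of all gene sums were called higher and 2.86% lower. The count was 1 without WT day 1 replicate a, WT day 5 replicate b or KO day 5 replicate a, and 2 without either KO day 1 library. In ΔATG 0 of 41 passed this test (8 at an unadjusted p under 0.05), where 0.124% were called higher and 0.255% lower, and without ΔATG day 5 replicate a the count was 1.

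Within each mutant line the early gain was also present. On day 2 against day 1, 26 of 41 gene sums were higher and 0 lower in KO (9.81% and 8.87%), and 22 higher and 0 lower in ΔATG (10.5% and 8.99%). On day 3 the counts were 22 and 2 in KO (13.5% and 13.5%) and 26 and 1 in ΔATG (14.4% and 13.3%). On day 4 they were 4 and 3 in KO (11.3% and 11.0%) and 11 and 3 in ΔATG (15.4% and 15.7%), and on day 5 they were 16 and 2 in KO (14.3% and 13.1%) and 14 and 3 in ΔATG (15.8% and 14.5%). Of the higher ones on day 5, 7 in KO, 6 in ΔATG and 1 in WT were HOXC genes. Tested directly against the change in WT, HOXC4 was the 1 HOXC gene called in KO, and 0 were called in ΔATG. With scaling on regions near gene ends the day 4 counts became 1 and 6 in KO and 6 and 5 in ΔATG.

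**Figure D4:**
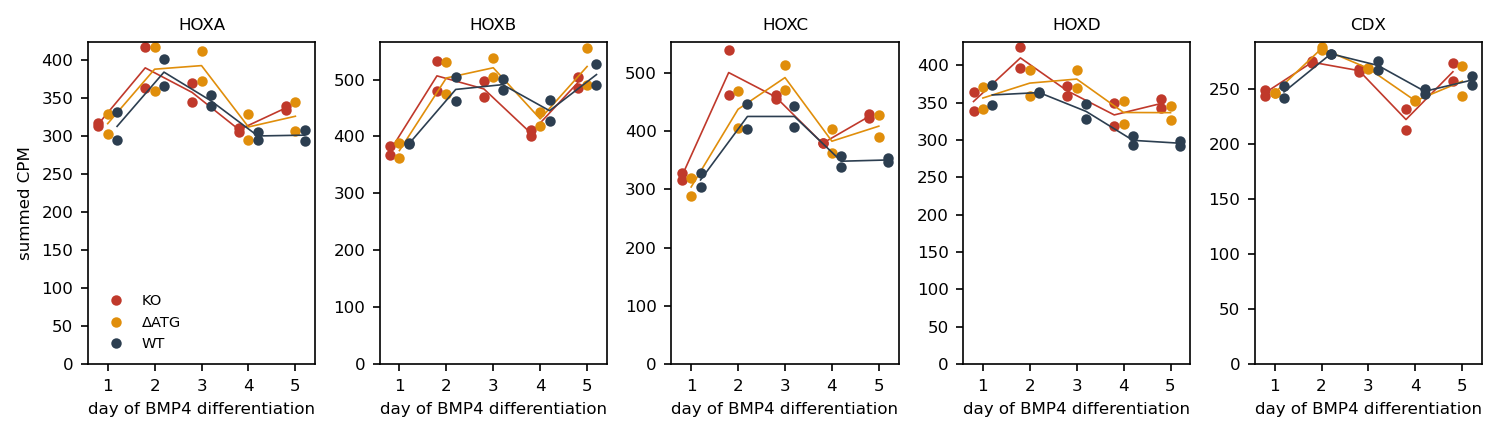
Summed accessibility (CPM) of the HOXA, HOXB, HOXC, HOXD and CDX genes on BMP4 days 1 to 5, with points for libraries and lines for means, in KO, ΔATG and WT cells. HOXC ended at a mean of 425.4 in KO, 408.4 in ΔATG and 350.4 in WT on day 5, and HOXD at 349.1 in KO, 336.8 in ΔATG and 295.9 in WT.

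Summed over whole clusters, the levels were as follows. The HOXC mean was 425.4 CPM in KO, 408.4 in ΔATG and 350.4 in WT on day 5, against 322.2, 304.0 and 316.1 CPM in the same order of lines on day 1. The HOXD mean was 349.1 CPM in KO, 336.8 in ΔATG and 295.9 in WT on day 5, against 351.7, 356.4 and 360.5 on day 1. HOXB reached 494.3 CPM in KO, 522.9 in ΔATG and 508.7 in WT on day 5, where the libraries overlapped. Along HOXB, paralogue groups 1 to 3 gained 53.7% in KO, 69.3% in ΔATG and 76.3% in WT between day 1 and day 5. Along HOXD, the sum over groups 1 to 3 had a mean of 108.5 CPM in KO, 96.8 in ΔATG and 78.2 in WT on day 5, against 87.6, 95.2 and 96.5 on day 1. Over groups 9 to 13 it had 155.3, 156.1 and 141.0 CPM on day 5 against 176.8, 178.2 and 178.4 on day 1. In HOXC, groups 4 to 8 gained 34.5% in KO and 5.73% in WT. These sums carry no test.

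Markers of other fates also differed between the lines under BMP4, where the shares of all gene sums called are those given above. Over the BMP4 days, 6 of 7 mesoderm markers were lower in KO and 6 of 7 in ΔATG, 6 of 6 neuroectoderm markers were higher in both lines, and pluripotency markers were higher at 4 of 4 in KO and 2 of 4 in ΔATG. On day 5 the mesoderm list summed to 534 and 563 CPM in KO, 614 and 574 in ΔATG and 673 and 758 in WT. The neuroectoderm list summed to 1184 and 1195 CPM in KO, 1013 and 1084 in ΔATG and 870 and 875 in WT. Amnion and trophoblast markers were higher at 1 of 5 and lower at 1 of 5 in KO, and called at 0 of 5 in ΔATG. No marker was at 0 in any library. Their part in the HOX differences was not tested.

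Among single regions under BMP4, 34 of 344 were higher and 21 lower in KO against WT (9.08% and 12.4% of all regions), and 17 higher and 3 lower in ΔATG (4.11% and 5.22%). The called HOXC regions were all higher, 15 in KO and 6 in ΔATG, and so were the HOXD ones, 5 in KO and 4 in ΔATG. HOXB had 6 higher and 15 lower in KO and 4 and 2 in ΔATG, with HOXB1 supplying 11 of the 15. The count in ΔATG was 11 without ΔATG day 2 replicate b and 13 without WT day 3 replicate a, in place of 20. Of the 116 regions within 1 kb of a gene end, 6 were higher and 2 lower in KO. The share among all regions within 1 kb is not given here, so this count is not read as particular to the listed regions. The change from day 1 to day 5 differed from that of WT at 3 regions upward and 2 downward in KO (0.762% and 1.33% of all regions), and at 0 of 344 in ΔATG (29 at an unadjusted p under 0.05, 0 by DESeq2; 0.0232% and 0.0528%). The 5 in KO became 0 without WT day 5 replicate b and 8 without KO day 5 replicate b.

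The region 20184 bp outside HOXC4, at chr12:54076114-54076314 beyond the anterior end of the cluster, was the HOXC region with the smallest p in KO. On day 2 it had 27.0 and 26.3 CPM in KO, 22.3 and 23.0 in ΔATG and 22.8 and 18.8 in WT. On day 3 it had 23.5 and 30.5 CPM in KO, 22.6 and 20.9 in ΔATG and 15.1 and 15.1 in WT, with no overlap between lines. It was higher in KO by 0.35 ± 0.07 over the days (adjusted p = 1.26e-04), a call that stood in all 35 alternatives. The HOXD1 promoter region (chr2:176188531-176188731, inside the printed window over 187 bp) was higher in KO by 0.25 ± 0.08. Near HOXC11 a region 6884 bp away (chr12:53966142-53966342) was higher in ΔATG by 0.42 ± 0.12, with 5.52 and 5.71 CPM in ΔATG and 3.22 and 3.42 in WT on day 5.

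CDX2 held neighbouring regions that went different ways. Within the gene, chr13:27965989-27966189 had 21.0 and 19.4 CPM in KO, 17.4 and 20.9 in ΔATG and 14.3 and 13.5 in WT on day 5, and was higher in KO by 0.35 ± 0.07 (adjusted p = 1.11e-04). The next region, chr13:27966781-27966981, was lower in KO by 0.22 ± 0.08. Near CDX1, chr5:150168031-150168231 was higher in ΔATG by 0.46 ± 0.12. At the HOXA13 promoter, chr7:27200191-27200391 had 4.21 and 5.95 CPM in KO, 4.67 and 6.46 in ΔATG and 8.58 and 9.01 in WT on day 5. This region rose in WT from day 1 to day 5 (0.78 ± 0.23) and was lower in KO over the days by 0.32 ± 0.12, a call lost in 14 of 36 alternatives.

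Under SMADi, WT cells lost accessibility at 10 listed genes, 4 of them in HOXD, and gained it at 4. On day 5 against day 1, 4 of 40 gene sums were higher and 10 lower, where 20.9% and 18.7% of all gene sums were, so the share that fell is not far from the background. On day 4, 5 were higher and 3 lower (16.3% and 14.0%). HOXD13 had 34.1 and 41.8 CPM on day 5 against 68.1 and 64.5 CPM on day 1, a fall of 0.78 ± 0.10 on the log2 scale (adjusted p = 1.46e-06). HOXD9 fell by 0.87 ± 0.19, HOXD1 by 0.78 ± 0.16, HOXC10 by 0.71 ± 0.16, HOXB13 by 0.70 ± 0.20, HOXD4 by 0.66 ± 0.22, HOXA10 by 0.61 ± 0.12, HOXC12 by 0.56 ± 0.16, HOXA13 by 0.50 ± 0.12 and HOXB3 by 0.48 ± 0.14. Of the 10, HOXD1, HOXD4 and HOXB3 are anterior genes and the others belong to paralogue groups 9 to 13. The other 9 of the 16 genes in those groups did not pass, among them HOXA9 (0.17), HOXC13 (0.16), HOXC9 (0.04) and HOXB9 (−0.12). The count of 14 became 9 without WT day 1 replicate a, and the split became 2 higher and 12 lower with total-count scaling. Summed within 1 kb of gene ends, HOXB13 changed by 0.06.

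Against this loss stood HOXC5, HOXC6, CDX1 and HOXB1. HOXC5 had 24.2 and 23.1 CPM in WT on day 5 against 8.71 and 7.38 on day 1 (1.55 ± 0.16, adjusted p = 2.96e-08). HOXC6 rose by 0.44 ± 0.15, CDX1 by 0.30 ± 0.09 and HOXB1 by 0.26 ± 0.09. The HOXC5 value turned to −0.19 and that of CDX1 to −0.06 with sums within 1 kb. One region, chr12:54041408-54041608, which lies 6147 bp outside HOXC5 and within the long HOXC4 gene, was near 0 in every line on day 1, with 0.24 and 0.00 CPM in KO, 0.00 in ΔATG and 0.06 and 0.06 in WT. On day 4 it had 6.20 CPM in KO, 4.37 and 6.24 in ΔATG and 5.07 and 5.23 in WT, and on day 5 it had 4.44 and 5.62 CPM in KO, 6.63 in ΔATG and 13.1 and 7.74 in WT. It opened in all 3 lines, and the adjusted p in WT was 9.95e-15. No fold is given because the day 1 libraries held almost no reads there. Distal HOXB1 regions opened as well, for example chr17:48489730-48489930, 38696 bp away, with 6.32 and 8.87 CPM in WT on day 5 against 0.54 and 0.71 on day 1 (3.63 ± 0.34).

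CDX2 did not pass as a gene (0.01), but single regions changed strongly in both directions. Upstream, chr13:27971394-27971594 had 20.2 and 23.2 CPM in WT on day 5 against 9.31 and 9.29 on day 1 (1.23 ± 0.17). Within the gene, chr13:27966419-27966619 had 1.47 and 3.31 CPM on day 5 against 6.73 and 7.34 on day 1 and fell by 1.41 ± 0.28. Of all 226 regions, 20 were higher and 41 lower on WT day 5 against day 1 (23.9% and 17.1% of all regions). HOXD had 0 higher and 13 lower, HOXA 1 and 5, HOXB 6 and 7, HOXC 8 and 8, and the CDX genes 5 and 8.

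Averaged over the SMADi days, more listed genes were lower than higher in the mutant lines against WT, the opposite direction to BMP4. In KO, 0 of 40 gene sums were higher and 22 lower than in WT (17.7% and 20.9% of all gene sums), with a median log2 fold change of −0.21 against 0.00 over all gene sums. In ΔATG 0 were higher and 15 lower (12.4% and 16.5%), with a median of −0.18. In KO the lower genes were 6 of 9 in HOXA, 6 of 10 in HOXB, 5 of 9 in HOXC, 5 of 9 in HOXD and 0 of 3 CDX genes, and in ΔATG they were 3, 4, 4, 4 and 0. Without the library labelled KO day 1 replicate b the counts were 20 lower in KO and 15 lower in ΔATG, with 0 higher in both. Set against each other, KO and ΔATG differed at 0 of 40 gene sums (2 at an unadjusted p under 0.05), where 0.0613% of all gene sums were higher and 0.0502% lower.

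In the posterior part of HOXC and HOXA, HOXC10, HOXC11, HOXA10 and HOXA11 were lower in both lines and HOXC13 in KO (−0.24 ± 0.08). HOXA9 (0.12), HOXA13 (0.04), HOXC12 (−0.04) and HOXC9 (−0.18) did not pass in KO. HOXC11 had 10.8 and 9.25 CPM in KO, 9.52 in ΔATG and 13 and 16.6 in WT on day 1. On day 4 it had 8.81 CPM in KO, 9.75 and 9.90 in ΔATG and 15.1 and 16.1 in WT, and on day 5 it had 8.38 and 6.09 CPM in KO, 7.87 in ΔATG and 12.0 and 13.8 in WT. On all 3 days every mutant library lay below both WT libraries. The log2 fold change was −0.75 ± 0.11 in KO (adjusted p = 1.07e-05) and −0.68 ± 0.12 in ΔATG (adjusted p = 0.000117). HOXC10 fell by 0.59 ± 0.11 in KO and 0.65 ± 0.11 in ΔATG, and on day 5 it had 7.23 and 6.15 CPM in KO, 6.62 in ΔATG and 10.2 and 10.1 in WT. HOXA11, a gene of the forearm and the uterus, fell by 0.65 ± 0.10 and 0.51 ± 0.11, and HOXA10, also of the uterus, by 0.44 ± 0.08 and 0.40 ± 0.08, in KO and ΔATG.

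**Figure D5:**
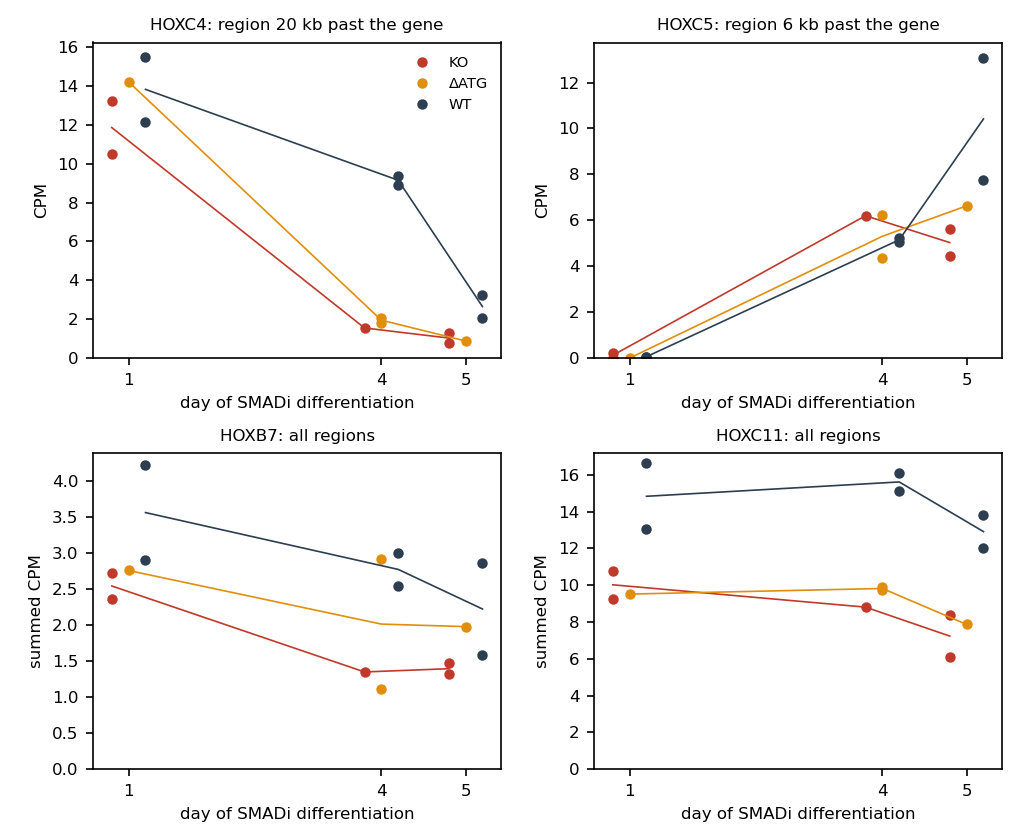
Normalised accessibility (CPM) on SMADi days 1, 4 and 5 in KO, ΔATG and WT cells, each point a library, for the region outside HOXC4, the region outside HOXC5 and the summed regions of HOXB7 and HOXC11. HOXC11 in the mutant lines lies below both WT libraries on each day, and the HOXC4 region on day 4 is at 1.55 in KO and 2.08 and 1.82 in ΔATG, with 9.39 and 8.91 in WT.

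Trunk genes with few counts had larger but less certain values. HOXA7 fell by 0.75 ± 0.24 in KO and 0.88 ± 0.26 in ΔATG, with 1.28 and 1.09 CPM in KO, 0.99 in ΔATG and 2.46 and 3.47 in WT on day 5. HOXB7 fell by 0.77 ± 0.25 in KO, with 1.47 and 1.32 CPM in KO, 1.98 in ΔATG and 1.59 and 2.86 in WT on day 5, where ΔATG and WT overlapped. In HOXD, HOXD4 fell by 0.59 ± 0.14 and HOXD11 by 0.40 ± 0.09 in KO, and HOXD13 by 0.22 ± 0.06 in KO and 0.23 ± 0.07 in ΔATG. HOXB1 was lower in both lines (−0.21 ± 0.06 and −0.24 ± 0.06 in KO and ΔATG), and HOXB9 was lower in KO (−0.14 ± 0.04), with a value of −0.11 ± 0.05 in ΔATG that did not pass. The level of CDX1 was 68.1 and 68.9 CPM in KO, 71.2 in ΔATG and 64.1 and 76.6 in WT on day 5, and none of the CDX genes passed.

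On day 1, 0 of 40 gene sums were higher in either line, 0 were lower in KO and 1 (HOXA5) in ΔATG, where 0.608% and 0.374% of all were higher and 0.547% and 0.379% lower. On day 5, 14 were lower in KO and 6 in ΔATG (21.8% and 14.3%), and 0 were higher in either (17.4% and 9.88%). Low values were present on day 1 all the same: the median log2 fold change over the 40 was −0.25 in KO and −0.35 in ΔATG on day 1, with 5 and 2 of 40 above 0 and 14 and 16 at an unadjusted p under 0.05. On day 4 the medians were −0.13 in KO, from 1 library, and −0.07 in ΔATG, with 16 and 17 of 40 above 0. In ΔATG 1 was higher and 6 lower on day 4, where 13.4% and 15.9% of all were. The share lower in ΔATG thus stood near the background on days 4 and 5, as did that in KO on day 4, from 1 library. The day 5 medians were −0.25 in KO and −0.13 in ΔATG, so the counts of calls do not show that the difference arose after day 1. The direct test of the change from day 1 to day 5 called fewer. In KO 1 of 40 passed, HOXB1 (−0.39 ± 0.13, adjusted p = 0.0384), where 7.61% of all gene sums were called higher and 13.5% lower. It was lost under 11 of 21 alternatives, among them leaving out the library labelled KO day 1 replicate b, which gave 0 of 40. In ΔATG HOXD9 (1.42 ± 0.32, adjusted p = 0.00412) and HOXA9 (0.81 ± 0.24, adjusted p = 0.0215) passed (7.01% higher and 10.5% lower among all). HOXD9, a posterior gene, had 12.4 CPM in ΔATG and 7.54 and 9.93 in WT on day 5, and 8.52 CPM in ΔATG and 14.6 and 18.5 in WT on day 1, so these interactions rest on 1 ΔATG library per day. Leaving out WT day 5 replicate b raised the ΔATG count from 2 to 9, and leaving out either WT day 1 library lowered it to 1.

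Within the lines, 11 of 40 gene sums were higher and 5 lower on day 4 against day 1 in KO (20.4% and 20.7%), and 16 and 2 in ΔATG (21.4% and 21.7%). On day 5 they were 6 and 10 in KO (30.1% and 30.6%) and 9 and 6 in ΔATG (21.7% and 23.0%). For ΔATG this split turned to 3 higher and 7 lower with scaling on regions near gene ends. The HOXD sum had a mean of 150.3 CPM in KO, 156.5 in ΔATG and 165.4 in WT on day 5, against 197.0, 177.8 and 231.7 on day 1.

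Marker lists also held genes called between the lines under SMADi. Of all gene sums, 17.7% were higher and 20.9% lower in KO, and 12.4% and 16.5% in ΔATG. In KO and in ΔATG, pluripotency markers were lower at 3 of 4, mesoderm markers were higher at 3 and lower at 3 of 7, and neuroectoderm markers were higher at 2 and lower at 1 of 6. The pluripotency list summed to 282 and 278 CPM in KO, 286 in ΔATG and 293 and 321 in WT on day 5, and the neuroectoderm list to 1234 and 1186, 1237 and 1101 and 1181 CPM in the same order of lines. The share of counts within 1 kb of gene ends was 41.5% and 40% in KO on day 5, against 34.0% and 35.0% in WT. The part of these measures in the HOX differences was not tested.

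Of 226 SMADi regions, 12 were higher and 42 lower in KO against WT (17.8% and 21.6% of all regions), and 7 higher and 35 lower in ΔATG (11.1% and 17.4%). Without the library labelled KO day 1 replicate b these were 7 and 35 in KO and 7 and 33 in ΔATG, and without KO day 4 replicate b KO had 28 called. Scaling on regions near gene ends, which shifted the median of all regions by −0.19 in KO and −0.15 in ΔATG, gave 3 and 73 in KO and 2 and 53 in ΔATG. The CDX genes, with 5 higher and 4 lower in KO, were the group whose majority turned with the scaling. The change from day 1 to day 5 differed from that of WT at 5 regions upward and 5 downward in KO (6.89% and 12.0%) and at 11 and 1 in ΔATG (5.10% and 8.78%). Without the library labelled KO day 1 replicate b the KO counts were 4 and 2.

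The region outside HOXC4 that was higher in KO under BMP4 was lower in both mutant lines under SMADi (chr12:54076116-54076316). On day 1 it had 10.5 and 13.2 CPM in KO, 14.2 in ΔATG and 15.5 and 12.2 in WT. On day 4 it had 1.55 CPM in KO, 2.08 and 1.82 in ΔATG and 9.39 and 8.91 in WT, and on day 5 it had 1.29 and 0.77 CPM in KO, 0.88 in ΔATG and 2.06 and 3.24 in WT. It closed in all 3 lines, and on days 4 and 5 the mutant libraries lay below those of WT. The log2 fold change over the days was −1.41 ± 0.18 in KO (adjusted p = 5.04e-08) and −1.29 ± 0.18 in ΔATG (adjusted p = 7.01e-07). From day 1 to day 5 it fell more than in WT in KO (−1.24 ± 0.41) and in ΔATG (−1.70 ± 0.49). Both calls were lost with DESeq2, and without replicate b of WT on day 1 or on day 5. The KO call was also lost without replicate b of KO on day 5 or the library labelled KO day 1 replicate b.

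The region chr7:27179835-27180035 at the HOXA10 promoter lies wholly within the printed window, but the window's CDX match falls outside the region. It had 2.50 and 1.98 CPM in KO, 2.78 in ΔATG and 6.18 and 4.77 in WT on day 5. It was lower in KO by 0.89 ± 0.16 (adjusted p = 2.12e-05) and in ΔATG by 0.63 ± 0.16 (adjusted p = 2.44e-03), and it fell in WT by 0.93 ± 0.24 from day 1 to day 5. Between HOXD13 and HOXD12, chr2:176097267-176097467 had 2.49 CPM in KO, 2.28 and 2.24 in ΔATG and 6.64 and 6.29 in WT on day 4, and was lower by 0.83 ± 0.17 in KO and 1.15 ± 0.18 in ΔATG. Within HOXB3, a hindbrain gene, chr17:48585432-48585632 was lower in ΔATG by 0.96 ± 0.17 and fell in WT by 1.14 ± 0.24.

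Some regions, among them that at the HOXA13 promoter, went the other way under SMADi. At HOXA13, chr7:27200155-27200355, which overlaps the printed window, had 9.02 and 7.28 CPM in KO, 7.42 in ΔATG and 3.53 and 3.64 in WT on day 5. On day 1 it had 6.35 and 5.02 CPM in KO, 3.24 in ΔATG and 4.93 and 4.94 in WT. It was higher in KO by 0.61 ± 0.15, and its change from day 1 to day 5 exceeded that of WT by 0.97 ± 0.35 in KO and 1.65 ± 0.43 in ΔATG. The KO call held under 9 of 21 alternatives, and not without the library labelled KO day 1 replicate b. Under BMP4 a region at the same promoter was lower in KO, as given above. Within HOXD9, chr2:176123105-176123305 had 6.23 and 5.81 CPM in KO, 5.38 in ΔATG and 2.21 and 3.44 in WT on day 5, and was higher in KO by 0.55 ± 0.16. At CDX1, chr5:150163643-150163843, 3035 bp outside the gene, was higher in both lines (0.69 ± 0.18 in KO and 0.74 ± 0.19 in ΔATG).

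Places open under both treatments allowed the calls to be set side by side. Of the 344 BMP4 and 226 SMADi regions, 200 pairs started within 100 bp of each other, 58.1% of the BMP4 and 88.5% of the SMADi regions. Of the 22 pairs higher in KO under BMP4, 7 were lower, 0 higher and 15 not called in KO under SMADi. Of the 8 lower in KO under BMP4, 2 were lower, 1 higher and 5 not called. Among pairs not called in KO under BMP4, 31 were lower, 10 higher and 129 not called under SMADi. Of the 11 higher in ΔATG under BMP4, 5 were lower, 1 higher and 5 not called. Among those not called in ΔATG under BMP4, 28 were lower, 6 higher and 154 not called. In WT, the change to day 5 was higher under both treatments at 6 pairs, lower under both at 6, and higher under BMP4 but lower under SMADi at 3. Among pairs not called in WT under BMP4, 10 were higher, 26 lower and 120 not called under SMADi. These counts carry no test and are not read as an opposition between the treatments.

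Genes that work with HOX factors or act on their clusters were counted as well. Of 9 genes for the TALE cofactors (PBX, MEIS and PKNOX), which bind DNA beside HOX proteins, KO had 2 higher (PBX4, 0.11, and PBX3, 0.10) and 2 lower (MEIS1, −0.15, and PKNOX1, −0.08) under BMP4 (11.4% and 11.4% of all gene sums), and ΔATG 0 (5.37% and 5.05%). Under SMADi members called included MEIS1, higher in KO (0.26) and ΔATG (0.22), and PKNOX2, higher in ΔATG (0.10). In WT, PKNOX1 (0.41) and PKNOX2 (0.21) were among those that rose and MEIS3 (−0.27) fell from day 1 to day 5 of BMP4, within 3 higher and 1 lower (24.3% and 23.2% of all). Of 9 Polycomb and Trithorax genes, whose products repress and open HOX clusters, 5 rose and 0 fell in WT under BMP4, against the same 24.3% and 23.2% (KDM6A 0.62, KMT2A 0.38, EZH2 0.37, RNF2 0.29 and KDM6B 0.25). Over the BMP4 days KO had 0 of these 9 called and ΔATG had EZH2 lower (−0.17), while under SMADi KO had 5 higher and 1 lower (17.7% and 20.9% of all) and ΔATG 2 and 1 (12.4% and 16.5%).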

How the data were processed

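ATAC-seq was measured in 51 libraries. The authors deposited 3 tables of counts, whole numbers of reads per 201-bp region that are not normalized, and the submitters' processing notes name MACS2 and GRCh38. Which aligner and peak settings were used, whether duplicates were removed and whether reads were moved for the transposase cut is not given in the sources used here. DNA was amplified by PCR, per the labels' protocols, so counts are not independent molecules.

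Regions were linked to the nearest end of a RefSeq protein-coding gene (GRCh38.p14, no strand) within 50 kb, and their counts were also summed per gene. Both levels were tested over the whole table with edgeR 4.0.16 (R 4.3.3), quasi-likelihood F test, TMM scaling, filterByExpr, a robust spread and a separate mean for each genotype on each day. After filtering, 100582, 142083 and 162313 regions and 17234, 17678 and 17930 gene sums were tested at day 0, under BMP4 and under SMADi. A group with 1 library took the spread of its table. A feature was called at an adjusted p under 0.05 (Benjamini-Hochberg, over all features of the fit), and "rose", "fell", "higher" and "lower" are used of these, except where CPM or sums are set side by side. A line against WT is the mean of its within-day differences, and whether KO or ΔATG changed from day 1 to day 5 by another amount than WT was tested as an interaction. The SE is the size of the log2 fold change over the root of its F statistic. CPM are counts scaled to library size after TMM, on separate scales for regions and gene sums. The procedure was tested on simulated data.

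The members, lists and tests were chosen with earlier results of these data known. Named regions were, for each main comparison and each cluster, the called region with the smallest p in each direction at or above the table's median level, 1 per gene; named genes were the called genes, up to 10 by size, and HOXB1, HOXB9, HOXA13, HOXD13, HOXC10 and the CDX genes. The 7 HOXB1 regions with the largest WT gain, and regions named for that sum, were chosen after their values were seen. Lists were markers of pluripotency, mesoderm, neuroectoderm, amnion and trophoblast, neural crest and endoderm, and TALE cofactors, posterior signals and retinoid genes, upstream factors, Polycomb and Trithorax, and neighbours and relatives. Alternatives were total-count scaling, scaling on regions within 1 kb of gene ends, DESeq2 1.42.0, no filter, a replicate block, members within 10 kb, sums within 1 kb and leaving out each library. Between replicates, the chi-square of the counts per degree of freedom ran from 1.03 to 3.1. The check of SMADi libraries against the KO and ΔATG labels used log2(CPM + 0.5) of gene sums. Some genes of the context lists are counted but not reported here by name.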

Additional observations from a re-analysis of the deposited data

Results flagged for a closer look

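The results below were singled out because a direct test found that a mutant line's change from day 1 to day 5 differed from that of WT (edgeR interaction, log2 scale). Under SMADi the listed genes and regions were called no more often than all gene sums and all regions, whose shares are given above. The BMP4 regions in KO also stood near their background, so these items are not read as particular to the HOX and CDX genes. Under BMP4 the KO gene sums concerned were HOXB1 (−0.41), HOXC4 (0.38), HOXD1 (0.67) and HOXD3 (0.58). The BMP4 regions in KO were chr17:48527083-48527283 near HOXB1 (1.28) and chr12:54024255-54024455 near HOXC6, a trunk gene (1.17, passed in 14 of 36 alternatives). Under SMADi the gene sums were HOXB1 in KO (−0.39) and HOXA9 (0.81) and HOXD9 (1.42) in ΔATG.

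The SMADi regions in KO were those at the HOXA13 promoter (0.97), 1371 bp from HOXB1 (−1.07), outside HOXC4 (−1.24), within HOXD9 (1.23) and within CDX2 at chr13:27966035-27966235 (0.76). Of these 5, the calls at HOXA13 and HOXC4 were lost without the library labelled KO day 1 replicate b, and all 5 also under at least 1 other alternative. The CDX2 region had 17.5 and 20.8 CPM in KO and 13.4 and 15.9 in WT on day 5, and 5.17 and 7.85 CPM in KO and 9.07 and 8.06 in WT on day 1. In ΔATG they were the HOXA13 promoter (1.65), a HOXC6 region at chr12:54031255-54031455 (1.72), the HOXC4 region (−1.70), the HOXD9 region (1.89) and a second CDX2 region at chr13:27966419-27966619 (1.83). The last had 4.55 CPM in ΔATG and 1.47 and 3.31 in WT on day 5, and 3.41 CPM in ΔATG and 6.73 and 7.34 in WT on day 1. The ΔATG values rest on 1 library on day 1 and 1 on day 5.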

How the results depend on the processing

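At day 0 the counts stayed at 0 to 0 for regions and gene sums of both lines under every alternative, each library left out included. Under BMP4, DESeq2 called 26 regions in KO against WT, 4 in ΔATG, 31 on WT day 5 against day 1 and 0 in the KO interaction, and 8, 3 and 2 gene sums in KO, ΔATG and the KO interaction. Under SMADi it called 30 and 22 regions in KO and ΔATG, 0 and 5 in their interactions, and 0 gene sums in the KO interaction. Total-count scaling gave 72 regions and 17 gene sums on WT day 5 against day 1 under BMP4, with more lower than higher, and 0 and 4 gene sums in the SMADi interactions of KO and ΔATG. Scaling on regions near gene ends, chosen after seeing the data, gave 73 regions and 17 gene sums for that WT comparison, again mostly lower, and under SMADi 21 and 16 regions and 2 and 4 gene sums in the interactions of KO and ΔATG, mostly lower. Sums within 1 kb gave 5, 1, 14 (4 higher, 10 lower) and 1 gene sums under BMP4 for KO, ΔATG, WT day 5 and the KO interaction, and 12, 7, 8, 0 and 1 under SMADi for KO, ΔATG, WT day 5 and the interactions of KO and ΔATG. With them HOXB1 (0.09) and HOXD13 (−0.22) in KO under BMP4, CDX2 in WT under BMP4 (−0.11) and HOXC5 (−0.19), HOXB13 (0.06), CDX1 (−0.06) and CDX2 (−0.46) in WT under SMADi changed sign. The cause of these differences was not tested.

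Leaving out single libraries gave 41 to 57, 11 to 27, 44 to 80, 0 to 8 and 0 to 0 regions under BMP4, for KO, ΔATG, WT day 5 and the interactions of KO and ΔATG in that order. The gene sums were 8 to 16, 3 to 12, 13 to 18, 1 to 4 and 0 to 1. Under SMADi the regions were 28 to 56, 30 to 54, 43 to 61, 3 to 17 and 8 to 24, and the gene sums 16 to 23, 11 to 16, 9 to 15, 0 to 4 and 1 to 9. The count of 16 gene sums on WT day 5 under BMP4 turned to more lower than higher without WT day 1 replicate b (15) or WT day 5 replicate b (13). The 5 BMP4 regions of the KO interaction became 0 without WT day 5 replicate b.

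Replicate letters did not pair the libraries: correlations of same-letter deviations ran from −0.13 to 0.19 under BMP4 and from −0.2 to 0.21 under SMADi. With the replicate block the SMADi KO interaction had 0 gene sums in place of 1, and the other counts stayed within 1.5 times. The 5 BMP4 regions of the KO interaction split 1 higher and 2 lower (3) without WT day 5 replicate a, and the SMADi KO interaction had 4 gene sums, 3 of them higher, without WT day 5 replicate b. The 2 libraries per group limit all p-values.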

Other observations

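Gene sums were also counted over the other lists, in which TBXT is a mesoderm marker and OTX2 a neuroectoderm marker too. For these counts, the shares of all gene sums called higher and lower were 11.4% and 11.4% in KO, 5.37% and 5.05% in ΔATG and 24.3% and 23.2% in WT (day 5 against day 1) under BMP4. Under SMADi they were 17.7% and 20.9% in KO, 12.4% and 16.5% in ΔATG and 20.9% and 18.7% in WT. With lists of 2 to 11 genes, no count is read as particular to its list. Of 11 posterior signal and retinoid genes, WT had 0 higher and 4 lower on day 5 against day 1 of BMP4, led by ALDH1A2, which makes retinoic acid (−0.34 ± 0.10). Over the BMP4 days KO had 2 higher and 1 lower, WNT3A (0.14 ± 0.03), CYP26C1 (0.10 ± 0.04) and TBXT (−0.20 ± 0.04), and ΔATG had WNT3A higher (0.08 ± 0.03) and TBXT lower (−0.16 ± 0.04). Under SMADi CYP26A1, which degrades retinoic acid, was lower in KO (−0.18 ± 0.05) and ΔATG (−0.25 ± 0.05), within 2 higher and 3 lower in KO and 3 and 3 in ΔATG, and WT had 1 higher (GDF11, 0.37). RARB, a retinoic acid receptor gene, was higher in ΔATG (0.25 ± 0.08).

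Of 4 upstream factors, KO had OTX2 (0.20 ± 0.03) and GBX2 (0.13 ± 0.03) higher and ΔATG OTX2 (0.12 ± 0.03) under BMP4, and under SMADi both KO and ΔATG had GBX2 lower (−0.14 and −0.14). Of 6 neighbours and relatives, EVX2, which lies beside HOXD13, was higher in KO (0.16 ± 0.03) and ΔATG (0.18 ± 0.03) under BMP4, as were GSX1 and GSX2, with EVX1, beside HOXA13, lower in KO (−0.09 ± 0.03). Under SMADi EVX1 (0.16 ± 0.06) and GSX1 (0.13 ± 0.04) were higher in KO, and 0 of 6 were called in ΔATG. Neural crest markers were higher at 1 of 3 in KO and 2 of 3 in ΔATG under BMP4 and lower at 1 of 3 in both under SMADi. Of 2 endoderm markers, FOXA2 was higher in KO under BMP4 (0.15 ± 0.03) and 0 were called in ΔATG or under SMADi in either line. Amnion and trophoblast markers under SMADi were higher at 3 of 5 in KO and 1 of 5 in ΔATG.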
